A study of Mus musculus with 8 samples.

Results

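Libraries from the prefrontal cortex of mice given a hairpin virus were set against libraries from mice given a virus for green fluorescent protein (GFP), over both experiments of the study at once. The comparison takes 4 hairpin libraries and 4 GFP libraries, which are the 8 libraries of the series, chosen by their labels alone. The mice were C57BL6/J, aged 6 to 8 weeks, and each group was given adeno-associated virus, serotype 9 (AAV9). In the Adnp set, 2 libraries titled Adnp (here shAdnp) stand beside 2 GFP libraries, and in the Pogz set, 2 libraries titled Pogz (shPogz) stand beside 2 other GFP libraries. The treatment label of both hairpin groups names ASH1L, while the titles and the design text name Adnp and Pogz; groups follow the titles. The design text speaks of 3 knockdown mice and 2 controls. The promoter of the viruses, the cells they entered and the time from injection to tissue are not given here in the sources used. The labels call the libraries of a group biological duplicates of bulk lysate.

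ADNP and POGZ are zinc finger proteins of the nucleus that bind heterochromatin protein 1, and mutations in either gene are a cause of intellectual disability and autism. ASH1L is a histone methyltransferase linked to the same disorders. In bulk cortex most RNA comes from neurons, and microglia, the resident macrophages, contribute a small part that can grow when they multiply or are activated. An AAV is itself sensed by innate immune receptors, so a control virus is the reference for such genes.

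A model with a term for set and a term for hairpin gave each gene 1 average effect, as a log2 fold change of hairpin over GFP within sets. Levels are CPM, the standard counts-per-library-size unit, with library sizes scaled by the trimmed mean of M-values (TMM), and compare libraries for a gene, not genes with each other. By edgeR's quasi-likelihood test 0 of 17415 genes (0%) passed a Benjamini-Hochberg adjusted p of 0.05, and 0.142 was the lowest adjusted p reached. DESeq2 on the same model called 697 genes higher and 14 lower, and limma-voom called 0. At an unadjusted p under 0.05, edgeR placed 1540 genes higher (8.84%) and 631 lower (3.62%), and these counts are the background for the groups below. With a set fitted alone, 1369 of 17415 genes were higher in the Adnp set and 759 in the Pogz set. Lower were 238 and 213, and these are the background for counts of 1 set alone. No gene named here passed the adjusted edgeR test, so "higher" and "lower" give the side on which values lay.

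The libraries did not differ by arm alone. Library totals over named genes were 27501722 to 69002749 counts. The first axis of a multidimensional scaling plot (52.3% of the spread) placed shPogz replicate 2 at one end (2.15) and Adnp-set GFP replicate 1 at the other (-2.47). Of the 1540 higher genes, 80.8% had their highest hairpin level in shPogz replicate 2 and 78.9% their lowest GFP level in Adnp-set GFP replicate 1. Without those 2 end libraries the unadjusted counts were 638 higher and 51 lower, and counts without them are given below as counts "without the end libraries". Those 2 smaller totals over all genes are the background for such counts, not the shares of the full fit. Counts over all genes also moved when 1 library was left out. Among those fits, the higher and the lower count were both smallest without shPogz replicate 2 and largest without shPogz replicate 1. So the change of a list's count with 1 library left out can follow that of all genes, and not the list alone. Rn45s, the ribosomal RNA precursor, stood at 4784 to 83492 CPM in the hairpin libraries and 1299 to 3848 CPM in the GFP libraries, and Lars2, which encodes a mitochondrial tRNA synthetase, at 2200.0 to 16590.1 against 151 to 1070.2 CPM (both named after their values were seen). Neither overlapped between the arms, and the part of rRNA in the results was not tested. Of the genes named below, Milr1, Ppm1e, Ccl3, Ccl4, Stab1, Ptx3, Tlr6, Erap1, Psme1, H2-Oa, Atf5, Cdc20, Lss, Tm7sf2, Myt1l, Ash1l, Gm9767 and Snord8 overlap another counted gene in RefSeq. Bcl2a1a, Klra9, Lilrb4, Lyz1, Hmgb1-rs17, Trim30a and the guanylate-binding proteins have close copies, and their counts are uncertain, as the sources used here do not give the strand setting or the handling of shared reads.

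The targeted genes were measured first. Adnp (chromosome 2, 168180965 to 168207112, GRCm38.p6) stood at 137 and 111 CPM in the GFP libraries of the Adnp set against 87.2 and 118 CPM in shAdnp, and at 116 and 135 CPM in those of the Pogz set against 131 and 102 CPM in shPogz. The hairpin and GFP values overlapped in both sets, and the average effect was -0.19 (SE 0.13, unadjusted p = 0.171). Pogz (chromosome 3, 94822989 to 94883577) stood at 55.7 and 44.9 CPM with GFP against 42.2 and 50.02 with the hairpin in the Adnp set, and 54.4 and 53.1 against 49.01 and 37.3 in the Pogz set, and Ash1l (chromosome 3, 88950414 to 89079375) at 364 and 301 CPM with GFP against 292 and 329.9 with the hairpin in the Adnp set, and 243 and 288 against 299 and 273 in the Pogz set. The average effect on Pogz was -0.22 (SE 0.11, unadjusted p = 0.0748), with shPogz replicate 2 the lowest of the 8 libraries. Ash1l differed by 0.01 (SE 0.10). Without the end libraries Adnp was at -0.01 (SE 0.13) and Pogz at -0.03 (SE 0.10). This average also takes in the set whose hairpin was not aimed at the gene. In its own set Adnp was at -0.27 (SE 0.19) in shAdnp and Pogz at -0.32 (SE 0.16) in shPogz, where both Pogz values lay below both GFP values of the set. A lower level of either target was not detected by the test of the average.

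**Figure D1:**
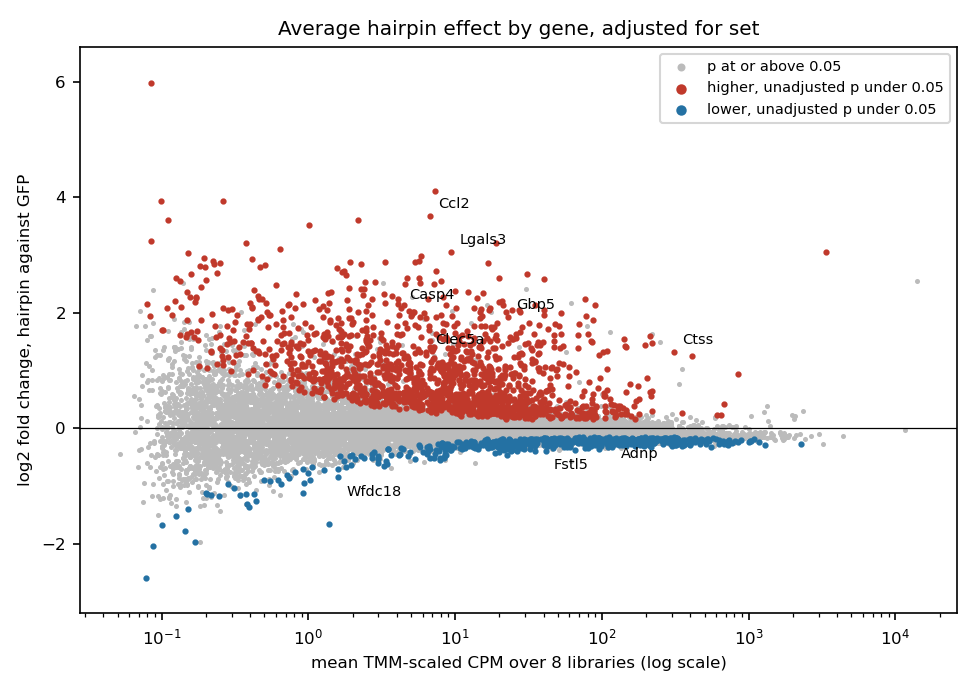
Average log2 fold change of hairpin against GFP (vertical axis) by mean TMM-scaled CPM over the 8 libraries (horizontal axis, log scale), 1 point a gene for 17415 genes. Genes on the higher side at an unadjusted p under 0.05 (red, 1540) spread to large folds at low and middle levels, while those on the lower side (blue, 631) lie close to 0 and at higher levels.

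The 2 directions differed in size and in level. The genes on the higher side had a median log2 fold change of 0.84 and a median level of 8.20 CPM, and 621 of the 1540 were over 2-fold. The genes on the lower side had a median of -0.24 at a median level of 60.9 CPM, against 16.7 CPM over all tested genes, and 20 of the 631 were over 2-fold. Over all tested genes the median log2 fold change was -0.02, with 44.7% above 0.

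Separation of single libraries was counted without a model. In 1240 genes (7.12%) both hairpin libraries lay above both GFP libraries of their own set in both sets, and in 925 (5.31%) below. All 4 hairpin libraries lay above all 4 GFP libraries in 698 genes (4.01%) and below in 405 (2.33%). Of the 1540 genes higher at an unadjusted p under 0.05, 1006 separated within both sets, as did 425 of the 631 lower. The p and the separation come from the same libraries, so this overlap was likely beforehand and is not separate support.

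The 12 genes with the smallest p on the higher side were led by receptors, signalling proteins and survival factors of myeloid cells. Clec5a (chromosome 6, 40574898 to 40585805), a lectin receptor of myeloid cells that signals through the adaptor DAP12, stood at 2.71 and 3.25 CPM in the GFP libraries of the Adnp set against 8.52 and 7.56 CPM in shAdnp, and at 4.95 and 3.85 CPM in those of the Pogz set against 7.07 and 13.04 CPM in shPogz. Every hairpin library lay above every GFP library, and the mean was 2.49-fold higher (log2 fold change 1.32, SE 0.20, unadjusted p = 4.62e-05; edgeR adjusted p = 0.142). Casp4 (chromosome 9, 5308849 to 5336791), the inflammatory caspase that senses bacterial lipopolysaccharide in the cytosol, stood at 0.621 and 1.05 CPM with GFP against 3.11 and 3.996 with the hairpin in the Adnp set, and 2.19 and 2.56 against 5.66 and 14.9 in the Pogz set. The arms again did not overlap, shPogz replicate 2 being the highest (log2 fold change 2.09, SE 0.30, unadjusted p = 5.07e-05). Bcl2a1a (chromosome 9, 88956920 to 88962416), a relative of BCL2 that blocks cell death, stood at 1.79 and 1.51 CPM in shAdnp over GFP values of 0.491 and 0.3502, and 1.497 and 3.22 CPM in shPogz over GFP values of 0.495 and 0.753. Its effect was 1.92 (SE 0.31, unadjusted p = 8.41e-05), with low levels in every library.

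Milr1, an immunoglobulin-like inhibitory receptor, stood at 0.425 and 0.398 CPM with GFP against 2.43 and 2.18 with the hairpin in the Adnp set, and 1.45 and 1.31 against 2.32 and 5.003 in the Pogz set. Its fold was the larger in the Adnp set, and the average was 1.92 (SE 0.32, unadjusted p = 0.000101). Tnfsf13b (chromosome 8, 10006229 to 10036000), which encodes the B cell survival factor BAFF, stood at 0.801, 0.955, 1.52 and 2.16 CPM with GFP, and 2.64, 3.37, 3.23 and 5.29 CPM in the 2 shAdnp and then the 2 shPogz libraries, and differed by 1.47 (SE 0.24, unadjusted p = 0.000105). Treml2, a receptor of the TREM family, stood at 0.981 and 1.54 CPM with GFP against 5.51 and 3.82 with the hairpin in the Adnp set, and 1.34 and 2.7004 against 5.08 and 12.1 in the Pogz set. Its lowest hairpin value exceeded its highest GFP value (log2 fold change 1.96, SE 0.33, unadjusted p = 0.000176). Cmklr1, the receptor for the chemoattractant chemerin, differed by 1.15 (SE 0.20, unadjusted p = 0.000186), and Sh3bp2, an adaptor that binds SYK, by 1.23 (SE 0.21, unadjusted p = 0.000206). Anxa2, a membrane-binding annexin, stood at 9.47, 10.7, 10.3 and 15.1 CPM with GFP, and 22.1, 18.2, 19.3 and 28.8 CPM in the 2 shAdnp and then the 2 shPogz libraries, with no overlap and an effect of 0.96 (SE 0.16, unadjusted p = 0.000123).

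Trib3 (chromosome 2, 152337425 to 152344060), a pseudokinase and a known target of the stress factor ATF4, stood at 0.262 and 0.382 CPM with GFP against 1.22 and 1.08 with the hairpin in the Adnp set, and 0.566 and 0.569 against 1.59 and 4.35 in the Pogz set. The average was 4.33-fold (log2 fold change 2.11, SE 0.35, unadjusted p = 0.000118), and shPogz replicate 2 was far above the other hairpin libraries. The small heat shock protein gene Hspb8 differed by 0.69 (SE 0.12, unadjusted p = 0.000168) and the telomerase-associated Tep1 by 0.71 (SE 0.13, unadjusted p = 0.000174). For each of these 12 genes all 4 hairpin libraries lay above all 4 GFP libraries, which was likely beforehand for genes chosen by p in these libraries. Without the end libraries Clec5a was at 1.02 (SE 0.21), Treml2 at 1.45 (SE 0.31), Milr1 at 1.59 (SE 0.43) and Trib3 at 1.55 (SE 0.35).

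**Figure D2:**
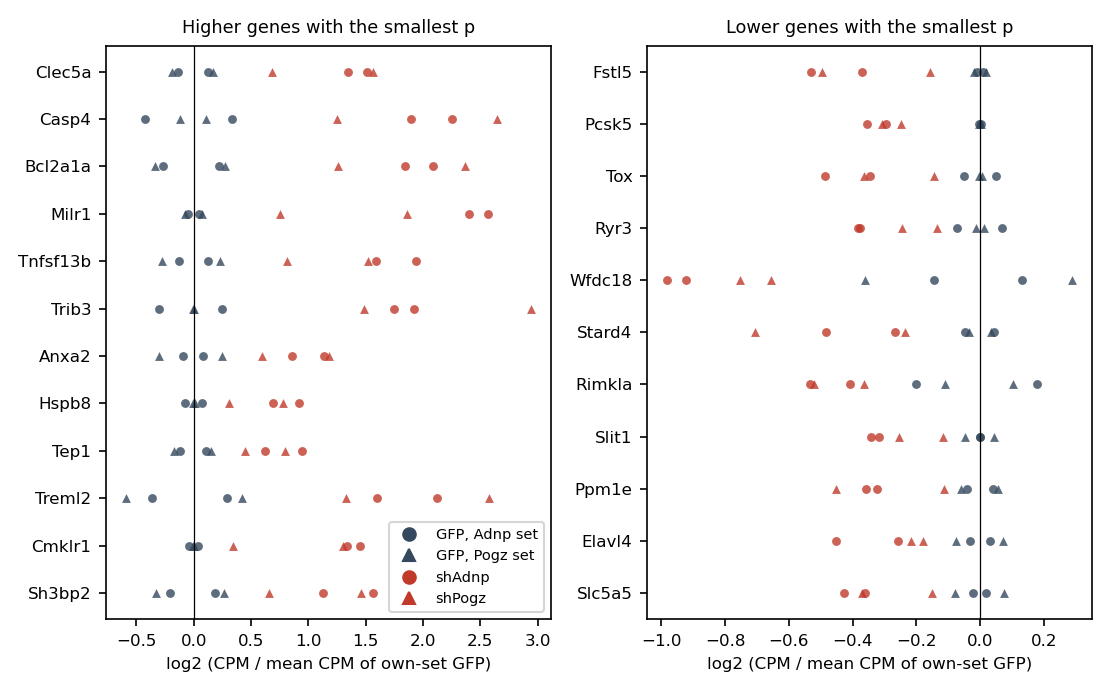
Level in each library of genes named by the smallest p on the higher (left) and lower (right) side, as log2 of CPM over the mean CPM of the GFP libraries of the same set; circles are the Adnp set, triangles the Pogz set, dark points GFP and red points hairpin. In each gene shown the hairpin points of a set lie on 1 side of the GFP points of that set, and the scale of the right panel is the smaller. The genes were chosen by p in these libraries, so such separation was likely beforehand.

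Short promoter motifs were looked up for these genes, because the groups below hold targets of the factors that bind them. The searched letters were GAAANNGAAA for the core of the interferon-stimulated response element (ISRE) and GAGGAAGT for the box of PU.1, the factor that defines myeloid cells, each on both strands. Promoters, from RefSeq (GRCm38.p6), ran from 250 bases before to 50 after a start, and 12458 of the tested genes had one or more, 15739 promoters in all. The ISRE core was in 3.15% of all promoters, in 8.23% of those of the 1540 higher genes and in 2.49% of those of the 631 lower genes. The PU.1 box was in 2.99%, 6.78% and 1.66% in the same order. A match is a description of letters and not of a bound site. The windows below are 60 bases on the gene's strand, and capitals mark the match; Bcl2a1a (chr9:88956791-88956850, plus strand) and Sh3bp2 (chr5:34549373-34549432, plus strand) are shown for the PU.1 box.
Bcl2a1a: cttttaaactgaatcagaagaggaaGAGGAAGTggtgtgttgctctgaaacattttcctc
Sh3bp2: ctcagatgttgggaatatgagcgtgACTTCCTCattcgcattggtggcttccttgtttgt
For the ISRE core, BAFF (Tnfsf13b, chr8:10006573-10006632, plus strand), Trim30a (chr7:104465195-104465254, minus strand) and Gbp5 (chr3:142496744-142496803, plus strand) are shown.
Tnfsf13b: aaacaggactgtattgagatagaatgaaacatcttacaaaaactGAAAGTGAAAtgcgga
Trim30a: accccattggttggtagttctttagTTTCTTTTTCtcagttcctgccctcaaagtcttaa
Gbp5: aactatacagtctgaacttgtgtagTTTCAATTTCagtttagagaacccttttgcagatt
The core was in 16 of 29 promoters (55.2%) of the interferon-stimulated list and 9 of 11 (81.8%) of the guanylate-binding list. These lists are known targets of the factors that bind it.

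Microglial markers lay higher as a group. Of 24 markers 21 were higher at an unadjusted p under 0.05 and 0 lower, against 8.84% of all genes, with a median log2 fold change of 0.80. Their summed level was 817 to 1602 CPM in the GFP libraries and 1813 to 3115 CPM in the hairpin libraries, so the arms did not overlap. Fitted alone, the Adnp set had 23 of 24 higher at that p (median 1.07) and the Pogz set 4 (median 0.43). In bulk tissue more cells of a type and more RNA per cell cannot be told apart. Without the end libraries 10 of 24 were past an unadjusted p of 0.05 and the median was 0.58.

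Ly86, which chaperones the Toll-like receptor homologue CD180, stood at 9.84 and 16.1 CPM in the GFP libraries of the Adnp set against 59.1 and 41.2 CPM in shAdnp, and at 23.7 and 31.95 CPM in those of the Pogz set against 38.98 and 67.1 CPM in shPogz. All 4 hairpin libraries were above the GFP libraries, most clearly in the Adnp set (log2 fold change 1.44, SE 0.33, unadjusted p = 0.00378). Itgam, the integrin CD11b, differed by 0.73 (SE 0.18, unadjusted p = 0.00321), and the lysosomal membrane protein gene Laptm5 by 1.07 (SE 0.26, unadjusted p = 0.00429). Tmem119, a marker of resident microglia, stood at 21.7 and 29.6 CPM with GFP against 39.3 and 42.5 with the hairpin in the Adnp set, and 41.9 and 39.5 against 42.9 and 58.5 in the Pogz set. Its shAdnp values lay close to the Pogz-set GFP values, and the average was 0.49 (SE 0.13, unadjusted p = 0.00413). Ctss, cathepsin S and the most abundant marker of the list, stood at 509 and 300.2 CPM in shAdnp over GFP values of 76.2 and 168, and 319 and 617 CPM in shPogz over GFP values of 213 and 282, an average of 1.32 (SE 0.39, unadjusted p = 0.015). For the 9 markers of border-associated macrophages, which line vessels and meninges, 1 was higher at that p, and 3 without Pogz-set GFP replicate 2 or shPogz replicate 1. The 1 was Ms4a7 at 1.30 (SE 0.34, unadjusted p = 0.00336), while the scavenger receptor Stab1 was at 0.35 (SE 0.17, unadjusted p = 0.0644). Within sets Stab1 was at 0.79 (SE 0.12) in the Adnp set and -0.09 (SE 0.12) in the Pogz set. No gene passed the adjusted edgeR test of the difference between sets.

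Genes of disease-associated microglia, a lipid-handling and phagocytic state, gave 22 of 24 members higher at an unadjusted p under 0.05, with a median of 1.23 (13 members and 0.81 without the end libraries). Lgals3, galectin 3, stood at 0.719 and 1.34 CPM in the GFP libraries of the Adnp set against 16.9 and 8.55 CPM in shAdnp, and at 2.26 and 4.58 CPM in those of the Pogz set against 9.1005 and 31.7 CPM in shPogz. No value overlapped between arms, and the level in shPogz replicate 2 was the highest (log2 fold change 3.05, SE 0.57, unadjusted p = 0.00155). Spp1, osteopontin, stood at 5.89 and 6.53 CPM with GFP against 25.9 and 13.03 with the hairpin in the Adnp set, and 4.24 and 5.32 against 8.54 and 14.1 in the Pogz set, a difference of 1.45 (SE 0.25, unadjusted p = 0.000252). Axl, a receptor for dying cells, stood at 46.3, 56.4, 64.6 and 70.7 CPM with GFP, and 89.6, 93.9, 86.02 and 143 CPM in the 2 shAdnp and then the 2 shPogz libraries and differed by 0.80 (SE 0.14, unadjusted p = 0.000296). The inhibitory receptor Lilrb4 differed by 2.72 (SE 0.44, unadjusted p = 0.000361). Their summed level was 2265 to 3029 CPM with GFP and 3242 to 6129 CPM with a hairpin.

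Pattern receptors followed. Of 18 Toll-like receptors and co-receptors 15 were higher at that p (median 1.02, and 8 members without the end libraries). Cd180 stood at 1.504 and 1.38 CPM with GFP against 6.52 and 5.36 with the hairpin in the Adnp set, and 1.17 and 4.11 against 6.64 and 15.4 in the Pogz set. The hairpin libraries were all above GFP (log2 fold change 2.02, SE 0.39, unadjusted p = 0.000726). Tlr1 and Tlr6, which each pair with TLR2 to bind lipopeptides, differed by 1.63 (SE 0.34, unadjusted p = 0.000967) and 1.08 (SE 0.25, unadjusted p = 0.00122), and the adaptor Myd88 by 0.56 (SE 0.14, unadjusted p = 0.00199). The Fc gamma receptor list holds receptors that bind antibody and a signalling chain. All 6 genes of the list were higher at that p, with a median of 1.30 (0.89 without the end libraries). Fcgr1 stood at 4.28, 8.25, 9.16 and 11.3 CPM with GFP, and 20.6, 17.7, 17.6 and 41.9 CPM in the 2 shAdnp and then the 2 shPogz libraries. Its effect was 1.57 (SE 0.30, unadjusted p = 0.00107), that of the shared signalling chain Fcer1g 1.39 (SE 0.28, unadjusted p = 0.00134) and that of Fcgr4 2.27 (SE 0.64, unadjusted p = 0.0116).

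Complement gave 14 of 17 members higher at an unadjusted p under 0.05, with a median of 1.25. The count was 10 without the end libraries, 9 without shAdnp replicate 2, 9 without Pogz-set GFP replicate 1 and 8 without shPogz replicate 2. The receptor gene C3ar1 stood at 3.68 and 4.49 CPM in the GFP libraries of the Adnp set against 21.6 and 11.7 CPM in shAdnp, and at 6.295 and 7.97 CPM in those of the Pogz set against 11.3 and 21.6 CPM in shPogz. The arms did not overlap (log2 fold change 1.61, SE 0.30, unadjusted p = 0.000646). The protease C1ra differed by 1.02 (SE 0.29, unadjusted p = 0.00696) and the integrin chain Itgb2 by 1.28 (SE 0.33, unadjusted p = 0.00706). Of 25 lysosomal genes 21 were higher at that p, by a smaller median of 0.51 (8 without the end libraries). Grn, progranulin, stood at 53.8 and 65.7 CPM with GFP against 118 and 119.8 with the hairpin in the Adnp set, and 69.2 and 97.4 against 122 and 226 in the Pogz set, and differed by 1.03 (SE 0.20, unadjusted p = 0.000735). Ctsc, cathepsin C, was at 1.71 (SE 0.37, unadjusted p = 0.00322), the protease Lgmn at 0.64 (SE 0.16, unadjusted p = 0.00308) and the membrane protein Lamp2 at 0.51 (SE 0.12, unadjusted p = 0.00152), each with all hairpin libraries above all GFP libraries.

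Interferon-stimulated genes had one of the largest list medians. Of 38 members 34 were higher at an unadjusted p under 0.05 and 0 lower, with a median of 1.82. Their summed level was 323 to 742 CPM with GFP, and 801 to 4797 CPM with a hairpin, the top value being that of shPogz replicate 2. In the Adnp set alone 11 of 38 were higher at that p (median 1.13), and in the Pogz set alone 37 (median 2.45). Without the end libraries 34 members were past that p, at a median of 1.05. The count was 17 without shAdnp replicate 2 and 10 without either Pogz-set GFP library, while the median stayed between 1.31 and 2.27 over the 8 fits that leave out 1 library.

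Trim30a (chromosome 7, 104409025 to 104465193), an interferon-induced regulator, stood at 4.69 and 12.002 CPM in the GFP libraries of the Adnp set against 21.6 and 22.8 CPM in shAdnp, and at 16.4 and 17.6 CPM in those of the Pogz set against 40.3 and 120.3 CPM in shPogz. Every hairpin library was above every GFP library (log2 fold change 1.83, SE 0.47, unadjusted p = 0.00783). Oas2, an enzyme that senses double-stranded RNA, stood at 0.834 and 1.72 CPM with GFP against 2.76 and 4.61 with the hairpin in the Adnp set, and 2.94 and 1.86 against 6.41 and 19.8 in the Pogz set. Its lowest hairpin value, in shAdnp, was below the highest GFP value, in the other set (log2 fold change 2.01, SE 0.45, unadjusted p = 0.00224). Ifi35 differed by 1.46 (SE 0.34, unadjusted p = 0.00291), and Dhx58, a receptor for viral RNA also called LGP2, by 1.82 (SE 0.46, unadjusted p = 0.0057). Guanylate-binding and immunity-related GTPases, which attack the vacuoles of pathogens, had the largest median of the 45 lists, 1.97, with 15 of 17 members higher at that p and 12 without the end libraries. That count was 2 without shAdnp replicate 2, 1 without either Pogz-set GFP library and 3 without shPogz replicate 2. The Adnp set alone gave 1 of 17 at that p (median 1.72), and the Pogz set alone 16 (median 2.37). Gbp5 stood at 2.88 and 8.79 CPM with GFP against 12.3 and 26.9 with the hairpin in the Adnp set, and 8.77 and 15.9 against 29.2 and 78.3 in the Pogz set. The lower shAdnp value lay below the higher Pogz-set GFP value (log2 fold change 1.93, SE 0.54, unadjusted p = 0.0119). Gbp9 differed by 1.55 (SE 0.46, unadjusted p = 0.0145).

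Antigen presentation by MHC class I gave 14 of 17 members higher at an unadjusted p under 0.05, with a median of 1.31, and 14 without the end libraries at a median of 0.67. The count was 7 without shAdnp replicate 2 or Pogz-set GFP replicate 1 and 8 without shPogz replicate 2. Erap1, which trims peptides, stood at 15.5 and 21.3 CPM in the GFP libraries of the Adnp set against 29.7 and 30.98 CPM in shAdnp, and at 25.5 and 26.3 CPM in those of the Pogz set against 33.1 and 57.02 CPM in shPogz. The arms did not overlap (log2 fold change 0.76, SE 0.16, unadjusted p = 0.00117). The proteasome activator subunit Psme1 differed by 0.76 (SE 0.18, unadjusted p = 0.00284) and the peptide-loading factor Tapbp by 0.97 (SE 0.26, unadjusted p = 0.00672). In MHC class II, 6 of 10 members were higher at that p (median 1.57), and 2 without the end libraries or without shPogz replicate 2 alone. H2-Oa, a regulator of peptide loading, differed by 1.70 (SE 0.44, unadjusted p = 0.00362).

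Cytokines, chemokines and NF-kB targets gave 23 of 30 members higher at an unadjusted p under 0.05 (median 1.42), 18 without the end libraries and 18 to 29 when 1 library was left out. Ccl2, which draws monocytes, stood at 0.164 and 0.77999 CPM in the GFP libraries of the Adnp set against 2.07 and 3.87 CPM in shAdnp, and at 0.495 and 1.31 CPM in those of the Pogz set against 8.89 and 35.9 CPM in shPogz. The hairpin values of both sets were above all GFP values, and they spanned 2.07 to 35.9 CPM (log2 fold change 3.68, SE 0.81, unadjusted p = 0.00393). Ccl4 stood at 0.0981 and 0.446 CPM with GFP against 3.88 and 2.14 with the hairpin in the Adnp set, and 0.283 and 0.426 against 1.64 and 8.49 in the Pogz set, also without overlap (log2 fold change 3.61, SE 0.62, unadjusted p = 0.000373). Ccl3 differed by 2.85 (SE 0.48, unadjusted p = 0.000211) and Ccl12 by 1.76 (SE 0.33, unadjusted p = 0.000512). These chemokines lie together on chromosome 11.

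**Figure D3:**
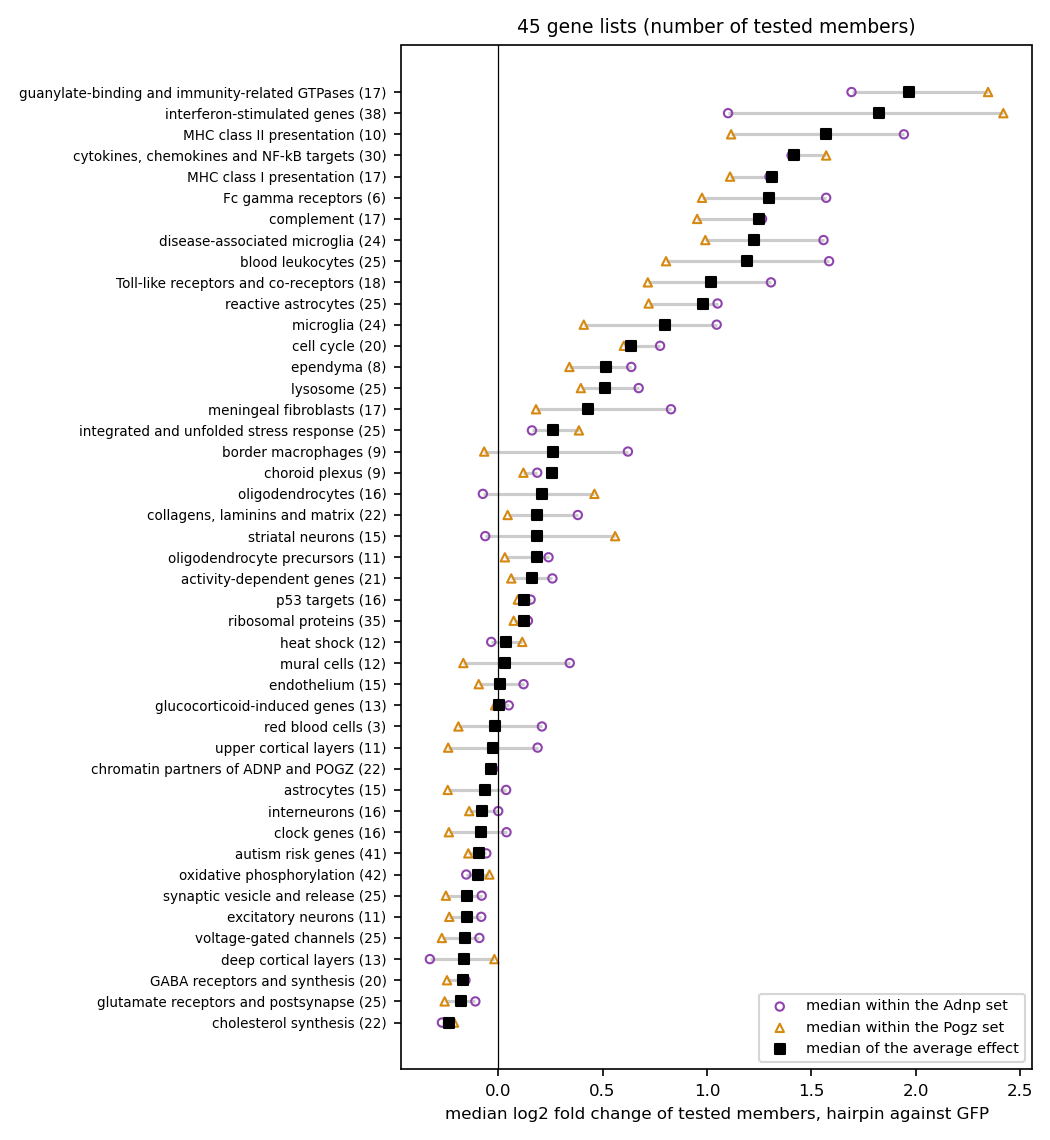
Median log2 fold change of hairpin against GFP over the tested members of each of 45 gene lists (horizontal axis): the average effect (black squares) and the medians within the Adnp set (circles) and the Pogz set (triangles). Immune, microglial and reactive astrocyte lists lie between 0.80 and 1.97, and the synaptic, channel and cholesterol lists between -0.15 and -0.23. Border macrophages (0.26) and the lysosome (0.51) stand between.

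Reactive astrocyte genes, induced in astrocytes by injury, gave 21 of 25 members higher at an unadjusted p under 0.05 (median 0.98), 7 without the end libraries, 11 without shPogz replicate 2 and 13 without Pogz-set GFP replicate 1. Some members, such as Cxcl10 and Gbp2, are also interferon targets. Cd44, a receptor for hyaluronan, stood at 5.49 and 7.02 CPM in the GFP libraries of the Adnp set against 17.5 and 14.3 CPM in shAdnp, and at 10.5 and 11.3 CPM in those of the Pogz set against 14.4 and 27.1 CPM in shPogz. The arms were apart (log2 fold change 1.14, SE 0.20, unadjusted p = 0.00027). Steap4 differed by 0.98 (SE 0.23, unadjusted p = 0.0013) and Ptx3 by 2.09 (SE 0.46, unadjusted p = 0.00103). Of 15 general astrocyte markers 0 were past an unadjusted p of 0.05 in either direction by edgeR, and DESeq2 called 0 of them. The glutamate transporter gene Slc1a2, the most abundant of them, was at -0.27 (SE 0.13, unadjusted p = 0.0596).

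Markers of blood leukocytes lay on the same side as the immune lists. Of 25 members 9 were higher at an unadjusted p under 0.05 (median 1.19), 5 without the end libraries, 5 without shAdnp replicate 2, 5 without Pogz-set GFP replicate 1 and 3 without shPogz replicate 2. Their summed level was 17.6 to 185 CPM with GFP and 105 to 407 CPM with a hairpin, so the arms overlapped. Cd8b1, a chain of the receptor of cytotoxic T cells, stood at 0.0654 and 0.446 CPM with GFP against 0.765 and 1.602 with the hairpin in the Adnp set, and 0.778 and 1.22 against 1.801 and 4.53 in the Pogz set. Within each set the hairpin libraries were the higher (log2 fold change 1.88, SE 0.52, unadjusted p = 0.00508). The granule protease Gzmb differed by 2.53 (SE 0.77, unadjusted p = 0.0131) and Ptprc, which marks all leukocytes and microglia, by 1.40 (SE 0.42, unadjusted p = 0.0158). The B cell markers Cd79a, Cd79b and Ms4a1 and the neutrophil genes S100a8 and S100a9 were not past that p (named after their values were seen). The part of leukocytes in the immune lists was not tested.

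Other cell types showed smaller differences. Meningeal fibroblast markers gave 8 of 17 members higher at that p (median 0.43) and 3 without the end libraries. The Adnp set alone gave 14 (median 0.85) and the Pogz set alone 0 (median 0.20). Over all genes the same fits had 1369 and 759 higher. Col1a2, a collagen chain, was at 0.67 (SE 0.17, unadjusted p = 0.00286) and the matrix protein Mgp at 0.60 (SE 0.15, unadjusted p = 0.00226). Collagens, laminins and matrix gave 7 of 22, led by Sparc at 0.38 (SE 0.10, unadjusted p = 0.00228), with 13 in the Adnp set alone and 1 in the Pogz set alone. The matrix and meningeal lists have the same largest log2 fold change, 0.99, and are not separate. Markers of striatal neurons gave 3 of 15, among them the receptors Adora2a at 1.11 (SE 0.36, unadjusted p = 0.0136) and Drd2 at 0.99 (SE 0.39, unadjusted p = 0.0272), and 0 without the end libraries. That count was 7 without shAdnp replicate 2, and 1 without shPogz replicate 2, Adnp-set GFP replicate 1 or either Pogz-set GFP library. The Adnp set alone gave 0 higher and 1 lower (median -0.04), and the Pogz set alone 8 higher (median 0.58). Their summed level was 565 to 606 CPM with GFP and 535 to 746 CPM with a hairpin. Of 11 precursor markers of oligodendrocytes 2 were higher, one being Sox10 at 0.52 (SE 0.19, unadjusted p = 0.0228). The count was 1 without the end libraries, 0 without Adnp-set GFP replicate 1, 4 without shAdnp replicate 2, and 1 without Adnp-set GFP replicate 2, shAdnp replicate 1, Pogz-set GFP replicate 2 or shPogz replicate 2. Oligodendrocyte, endothelial, mural, excitatory neuron and interneuron lists held 0 members past that p by edgeR in either direction and 0 called by DESeq2. These zeros depended on single libraries, as did the counts over all genes. With 1 library left out, the medians ranged from 0.02 to 0.43 for oligodendrocytes and from -0.03 to 0.05 for endothelium. They ranged from -0.002 to 0.14 for mural cells, -0.22 to -0.06 for excitatory neurons and -0.10 to -0.02 for interneurons. Mbp, the most abundant myelin gene, was at 0.14 (SE 0.25), and Slc17a7, the vesicular glutamate transporter that defines cortical excitatory neurons, stood at 1173, 1168, 921 and 1063 CPM with GFP, and 1108, 1087, 979.6 and 741 CPM in the 2 shAdnp and then the 2 shPogz libraries (log2 fold change -0.15, SE 0.10, unadjusted p = 0.159).

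Cortical layer markers varied between libraries more than between arms. Upper-layer markers summed to 1121 CPM in shAdnp replicate 2 and 587 to 863 CPM in the other 7 libraries, and deep-layer markers to 373 against 553 to 707 CPM. The part of this in the results was not tested. The deep-layer gene Crym was at -0.34 (SE 0.22, unadjusted p = 0.156), and of the 24 layer markers 0 were past an unadjusted p of 0.05 by edgeR, with 0 called by DESeq2.

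**Figure D4:**
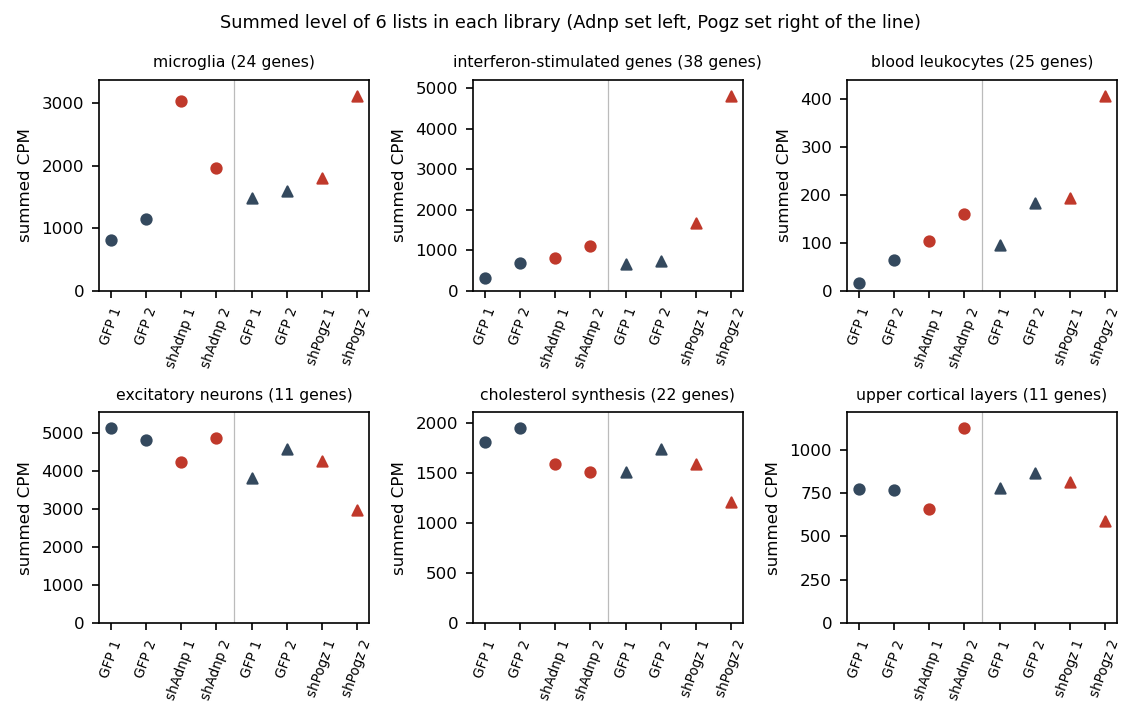
Summed TMM-scaled CPM of 6 lists (vertical axes, from 0) in each of the 8 libraries, with the Adnp set left and the Pogz set right of the line; dark points are GFP and red points hairpin. The microglial sums of the hairpin libraries (1813 to 3115) lie above those of GFP (817 to 1602), the leukocyte and neuronal sums overlap, and the upper-layer sum of shAdnp replicate 2 stands apart at 1121.

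Stress and growth lists lay between. Of 25 genes of the integrated and unfolded stress response, 10 were higher at an unadjusted p under 0.05 (median 0.26) and 6 without the end libraries. That count was 18 without shAdnp replicate 2, 5 without Pogz-set GFP replicate 1 and 6 without Pogz-set GFP replicate 2. Atf3, a stress-induced transcription factor, stood at 0.719 and 2.15 CPM in the GFP libraries of the Adnp set against 10.3 and 3.19 CPM in shAdnp, and at 1.13 and 2.42 CPM in those of the Pogz set against 6.83 and 19.1 CPM in shPogz. The hairpin libraries were above all GFP libraries, by little in shAdnp replicate 2 (log2 fold change 2.52, SE 0.60, unadjusted p = 0.00481). Atf5 differed by 0.61 (SE 0.16, unadjusted p = 0.0033) and Phgdh, an enzyme of serine synthesis, by 0.38 (SE 0.10, unadjusted p = 0.00275). The core of the ATF4 element, TGATGCAA on both strands, was in 4 of 26 promoters of this list (15.4%). It was in 1.38% of those of the 1540 higher genes and 0.667% of all. The Atf3 window (chr1:191183409-191183468, minus strand) is shown because Atf3 had the largest named difference of the list.
Atf3: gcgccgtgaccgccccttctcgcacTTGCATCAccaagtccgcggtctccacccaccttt
Cell cycle genes gave 14 of 20 higher at that p (median 0.64), 4 without the end libraries, 7 without Adnp-set GFP replicate 1 or shPogz replicate 2 and 9 without shAdnp replicate 1. The replication helicase subunit Mcm3 differed by 1.04 (SE 0.21, unadjusted p = 0.000563), the mitotic activator Cdc20 by 1.36 (SE 0.28, unadjusted p = 0.000643) and the kinase Cdk1 by 1.61 (SE 0.41, unadjusted p = 0.00296). Of 16 p53 targets 4 were higher, among them the death receptor Fas at 1.04 (SE 0.29, unadjusted p = 0.00472) and the stress cytokine Gdf15 at 1.48 (SE 0.53, unadjusted p = 0.0186), and 0 without the end libraries. That count was 2 without Pogz-set GFP replicate 2 or shPogz replicate 2.

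Differences on the lower side were small. Fstl5 (chromosome 3, 76074275 to 76710010), a follistatin-like secreted protein gene, stood at 47.8 and 48.5 CPM in the GFP libraries of the Adnp set against 37.2 and 33.4 CPM in shAdnp, and at 45.9 and 44.7 CPM in those of the Pogz set against 40.6 and 32.1 CPM in shPogz. All 4 hairpin libraries were below all 4 GFP libraries (log2 fold change -0.38, SE 0.09, unadjusted p = 0.00136; edgeR adjusted p = 0.1495; DESeq2 adjusted p = 0.00931). Pcsk5, a convertase of proproteins, stood at 29.3, 29.4, 28.4 and 28.6 CPM with GFP, and 23.9, 22.97, 23.96 and 23.02 CPM in the 2 shAdnp and then the 2 shPogz libraries, with GFP values within a narrow range and a difference of -0.30 (SE 0.07, unadjusted p = 0.00153).

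The transcription factor Tox was at -0.33 (SE 0.08, unadjusted p = 0.00264) and the calcium release channel Ryr3 at -0.28 (SE 0.07, unadjusted p = 0.00278). Slit1, a guidance cue of axons, stood at 76.8 and 76.9 CPM with GFP against 60.6 and 61.6 with the hairpin in the Adnp set, and 70.8 and 75.4 against 67.4 and 61.3 in the Pogz set. The arms were apart by little (log2 fold change -0.26, SE 0.07, unadjusted p = 0.00401). The phosphatase Ppm1e differed by -0.31 (SE 0.08, unadjusted p = 0.00419), the neuronal RNA-binding protein gene Elavl4 by -0.27 (SE 0.08, unadjusted p = 0.00435) and Rimkla, which makes the peptide N-acetylaspartylglutamate, by -0.45 (SE 0.12, unadjusted p = 0.00388). Wfdc18, a small secreted protein gene at about 1 to 2 CPM, was at -0.84 (SE 0.22, unadjusted p = 0.00358) and the iodide transporter Slc5a5 at -0.32 (SE 0.09, unadjusted p = 0.00458). Stard4, a carrier of cholesterol between membranes, stood at 23.9 and 22.4 CPM with GFP against 19.2 and 16.6 with the hairpin in the Adnp set, and 23.1 and 22.02 against 19.2 and 13.8 in the Pogz set. Both hairpin groups were below all GFP libraries (log2 fold change -0.41, SE 0.11, unadjusted p = 0.0038). Of the 14 genes that DESeq2 called lower, 11 are among the 12 with the smallest edgeR p on this side. Without the end libraries Fstl5 was at -0.29 (SE 0.11), Pcsk5 at -0.27 (SE 0.10) and Stard4 at -0.26 (SE 0.11).

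Cholesterol synthesis was the lowest of the 45 lists by median. Of 22 members 21 lay below 0 and 10 were lower at an unadjusted p under 0.05, against 3.62% of all genes, with a median of -0.23. Without the end libraries the median was -0.16, and with 1 library left out it ranged from -0.32 to -0.18. The count of members past that p fell or rose with the library left out, as did the lower count over all genes. Lss, lanosterol synthase, stood at 30.3 and 32.8 CPM with GFP against 26.6 and 28.2 with the hairpin in the Adnp set, and 32.4 and 31.8 against 27.4 and 23.99 in the Pogz set. Its hairpin values were all below its GFP values (log2 fold change -0.26, SE 0.08, unadjusted p = 0.00717). Dhcr7, a reductase late in the pathway, stood at 22.6, 22.9, 26.8 and 22.6 CPM with GFP, and 19.5, 20.7, 19.1 and 16.9 CPM in the 2 shAdnp and then the 2 shPogz libraries, a difference of -0.31 (SE 0.10, unadjusted p = 0.00883), and the reductase Tm7sf2 was at -0.35 (SE 0.11, unadjusted p = 0.00898). The summed level was 1514 to 1947 CPM with GFP and 1213 to 1597 CPM with a hairpin.

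Synaptic lists lay below 0 by small amounts. Lower at an unadjusted p under 0.05 were 5 of 25 genes of glutamate receptors and the postsynapse (median -0.18), 3 of 25 of vesicles and release (-0.15), 4 of 20 of GABA signalling (-0.17), 4 of 25 voltage-gated channels (-0.16) and 4 of 42 of oxidative phosphorylation (-0.10). Without the end libraries few of all genes were past that p on the lower side, so counts from that fit say little of these lists. The medians there were -0.03, -0.02, -0.09, -0.01 and -0.12. With 1 library left out, the medians ranged from -0.24 to -0.10, -0.21 to -0.06, -0.23 to -0.11, -0.26 to -0.07 and -0.12 to -0.05, in the same order. The first 4 lists were nearest to 0 without shPogz replicate 2. Their counts moved with the library left out, and so did the lower count over all genes. Among those fits, the count over all genes was smallest without shPogz replicate 2 and largest without shPogz replicate 1. Nsf, the ATPase that recycles fusion complexes, stood at 1116 and 1143 CPM in the GFP libraries of the Adnp set against 959 and 994 CPM in shAdnp, and at 1087 and 1007 CPM in those of the Pogz set against 971 and 789 CPM in shPogz. The hairpin values were all below the GFP values, and shPogz replicate 2 was the lowest (log2 fold change -0.23, SE 0.08, unadjusted p = 0.0196).

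Grm5, a metabotropic glutamate receptor, differed by -0.21 (SE 0.08, unadjusted p = 0.0293). Gabrg3, a subunit of the GABA-A receptor, stood at 23.5 and 21.97 CPM with GFP against 17.8 and 19.98 with the hairpin in the Adnp set, and 21.999 and 21.9 against 18.97 and 16.5 in the Pogz set, lower in each set (log2 fold change -0.29, SE 0.09, unadjusted p = 0.00675). Gabrb2 was at -0.22 (SE 0.09, unadjusted p = 0.0408) and the GABA-B receptor subunit Gabbr1 at -0.26 (SE 0.11, unadjusted p = 0.0415). The sodium channel Scn1a differed by -0.26 (SE 0.10, unadjusted p = 0.0249). The respiratory chain genes Ndufa4 and Atp5o were at -0.21 (SE 0.07, unadjusted p = 0.0175) and -0.21 (SE 0.07, unadjusted p = 0.019). Of 41 autism risk genes 35 lay below 0 and 4 were lower at that p (median -0.09), with 0 without the end libraries. With 1 library left out, the median of the autism risk genes ranged from -0.13 to -0.05. Their count fell or rose with the library left out, as did the lower count over all genes. Asxl3 was at -0.36 (SE 0.13, unadjusted p = 0.0188), Myt1l at -0.24 (SE 0.09, unadjusted p = 0.0199) and the ankyrin Ank2 at -0.21 (SE 0.09, unadjusted p = 0.0374). Of 16 clock genes 1 was lower at that p, Clock at -0.22 (SE 0.09, unadjusted p = 0.0312), and 0 without Adnp-set GFP replicate 1, Pogz-set GFP replicate 1 or shPogz replicate 2. Of 22 chromatin partners of ADNP and POGZ 0 were past that p by edgeR in either direction and 0 were called by DESeq2.

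Of the 5 genes with the largest change on the higher side among separated genes, Ccl2 and Ccl4 are described above, and the other 3 stood at low levels. Adm2, a vasoactive peptide, had 0 counts in all 4 GFP libraries and stood at 0, 0, 0 and 0 CPM with GFP, and 0.0348, 0.035998, 0.187 and 0.419 CPM in the 2 shAdnp and then the 2 shPogz libraries, so no fold is given. Tnfsf18 and Klra9 stood at or under 1.34 CPM in every library. The 5 on the lower side, Hmgb1-rs17, Cryba2, Gm9767, Snord8 and Ptprq, were all under 1 CPM, with Ptprq at 0.441 and 0.573 CPM with GFP against 0.209 and 0.144 with the hairpin in the Adnp set, and 0.813 and 0.355 against 0.234 and 0.288 in the Pogz set (log2 fold change -1.31, SE 0.42, unadjusted p = 0.0104).

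The average can hide a difference between the sets, so the difference of the effects was tested. By edgeR 0 genes (0%) passed the adjusted test, and 0.978 was the lowest adjusted p. The effect at an unadjusted p under 0.05 was larger in shPogz for 192 genes (1.10%) and smaller for 420 (2.41%). DESeq2 called 2 genes. Among genes past an unadjusted p of 0.05 for the average, Cd33, an inhibitory receptor of myeloid cells, had the smallest p of the difference. It stood at 4.58 and 5.35 CPM with GFP against 11.5 and 10.3 with the hairpin in the Adnp set, and 8.31 and 10.7 against 9.54 and 9.95 in the Pogz set. The shPogz values lay within those of its GFP libraries, and the effects were 1.13 (SE 0.18) in the Adnp set and 0.03 (SE 0.18) in the Pogz set (difference, unadjusted p = 0.00159). Lyz1, a lysozyme, had 2.79 (SE 0.46) in the Adnp set and 0.04 (SE 0.43) in the Pogz set (unadjusted p = 0.00161), and Serpinf1, an antiangiogenic serpin, 1.02 (SE 0.15) in the Adnp set and 0.11 (SE 0.15) in the Pogz set (unadjusted p = 0.00215).

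Lists also stood at different levels in each set, without a test. The median of interferon-stimulated genes was 1.10 in the Adnp set and 2.42 in the Pogz set, with the larger value in the Pogz set for 38 of 38 members, none at an unadjusted p under 0.05 for the difference. Microglial markers had medians of 1.05 and 0.41, with the larger value in the Pogz set for 1 of 24 and 2 members past that p on the smaller side. Meningeal fibroblast markers had 0.83 and 0.18, with 7 of 17 members past that p on the smaller side, the most of the 45 lists. Striatal neuron markers had -0.06 and 0.56, with 3 of 15 past that p on the larger side. Cholesterol synthesis had -0.27 and -0.21. Across the tested genes the effects in the 2 sets, which share no library, had a Pearson correlation of 0.42 and a Spearman correlation of 0.25. Genes are not independent replicates, and within a set the genes share the same libraries and their depth and rRNA share.

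**Figure D5:**
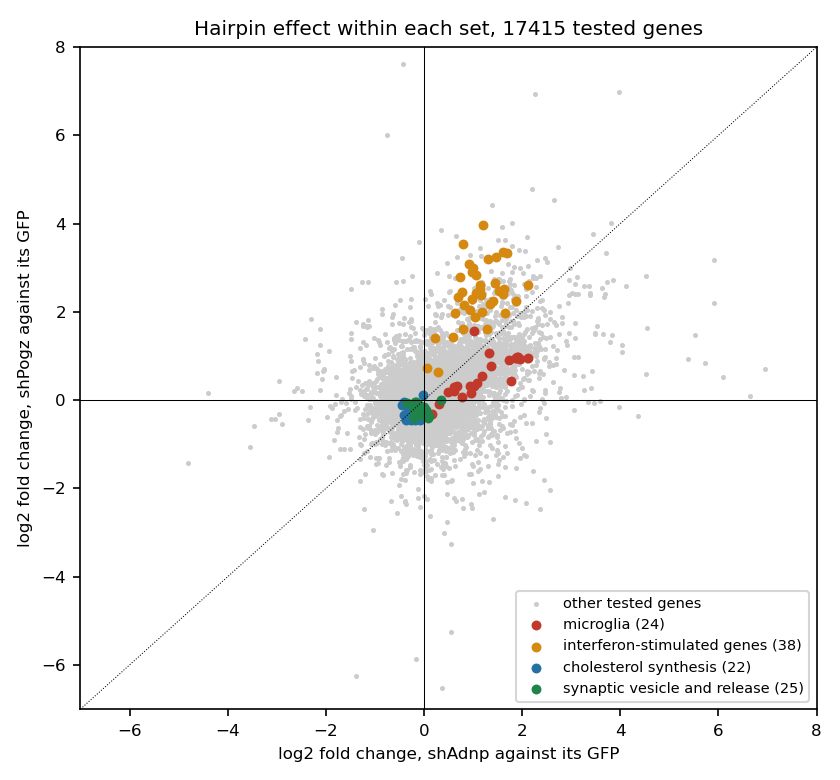
Log2 fold change of shAdnp against its GFP libraries (horizontal axis) and of shPogz against its own (vertical axis), 1 point a gene; the dotted line marks equal effects. The 38 interferon-stimulated genes lie above the line, 23 of the 24 microglial markers below it, and the cholesterol and vesicle genes close to 0 in both sets.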

How the data were processed

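The authors deposited unnormalised read counts for each gene symbol in 8 libraries. Per the labels' protocols, stranded libraries were made from 1 µg of total RNA after ribosomal depletion, and reads were trimmed with Cutadapt and aligned to RefSeq with TopHat2; STAR, featureCounts, DESeq2 and build mm10 are named per the submitters' processing notes. The sources used here give no versions. Rows that were blank (2) or turned into calendar serials (25, holding 0.306% to 0.337% of counts) were left out, and 23393 genes remained. The second Pogz library, numbered 3 in its column header, was used as its title says.

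Counts were analysed with edgeR 4.0.16 in R 4.3.3: filterByExpr by group (minimum count 10; 17415 genes), TMM, and a robust quasi-likelihood fit with terms for set and hairpin (5 residual degrees of freedom, biological coefficient of variation 0.168). The difference between sets came from a model with 1 mean per group. P-values were adjusted over all tested genes by Benjamini-Hochberg at 0.05. The steps were tested on simulated data. No pair of libraries agreed within counting noise (chi-square over its degrees of freedom from 15.0 to 394). As nothing says how the duplicates were taken, p-values measure the spread between these samples. Coordinates and promoters come from RefSeq GRCm38.p6, the assembly of mm10, where 16147 tested symbols matched.

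The members and the 45 lists were chosen with earlier results of these data known, so lists are described and not tested. Some genes are members of more than 1 list, so counts of different lists are not independent. Named genes are Adnp, Pogz and Ash1l, the 12 genes each way with the smallest p, up to 4 members of each list, by p, on the side of its median, the 5 each way with the largest change among separated genes, the 3 with the smallest p of the difference between sets, and the most abundant cell type markers; the text names a part, with some not reported here, of the 214 genes this gives. Alternatives were DESeq2 1.42.0, limma-voom (limma 3.58.1), RLE and upper quartile scaling, other filters, other thresholds, other models, a replicate block and left-out libraries.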

Additional observations from a re-analysis of the deposited data

Results flagged for a closer look

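Each arm of 4 libraries was searched for a library whose gap to the nearest other exceeded the share of the range that Dixon's 95% limit sets for 4 samples. Chance marks about 1 arm in 20, and arms join libraries of 2 sets, so a mark can also follow a difference between sets. Of 116 named genes, 21 were marked in the hairpin arm and 6 in the GFP arm, and shPogz replicate 2 was the library apart in 19 of the 21. Of 45 summed lists, 4 were marked in the hairpin arm and 5 in the GFP arm. In shPogz replicate 2 the genes apart on the high side were Bcl2a1a at 3.22 CPM, Milr1 at 5.003 CPM, Trib3 at 4.35 CPM, Klra9 at 1.34 CPM, Ms4a7 at 8.67 CPM, Axl at 143 CPM, Cd180 at 15.4 CPM and Fcgr1 at 41.9 CPM, and also Fcgr4 at 27.1 CPM, Itgb2 at 67.8 CPM, Erap1 at 57.0 CPM, Ccl12 at 14.9 CPM, Grn at 226 CPM, Ctsc at 122 CPM, Phgdh at 36.8 CPM and Gdf15 at 1.31 CPM. On the low side they were Ppm1e at 225 CPM, Nsf at 789 CPM and Gabrb2 at 388 CPM. The other genes were Slit1 at 67.4 CPM in shPogz replicate 1, Tnfsf18 at 0.0720 CPM in shAdnp replicate 2, Tnfsf18 at 0.0707 CPM in Pogz-set GFP replicate 1, Dhcr7 at 26.8 CPM in Pogz-set GFP replicate 1, Cd180 at 4.11 CPM in Pogz-set GFP replicate 2, Tlr6 at 1.36 CPM in Pogz-set GFP replicate 2, Gabrg3 at 23.5 CPM in Adnp-set GFP replicate 1 and Mbp at 1644 CPM in Adnp-set GFP replicate 2.

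The summed lists with a library apart were astrocytes at 7865 CPM in Adnp-set GFP replicate 1, oligodendrocyte precursors at 287 CPM in Adnp-set GFP replicate 1, interferon-stimulated genes at 323 CPM in Adnp-set GFP replicate 1, endothelium at 566 CPM in shAdnp replicate 2 and upper cortical layers at 863 CPM in Pogz-set GFP replicate 2, and MHC class I presentation at 3050.4 CPM in shPogz replicate 2, MHC class II presentation at 1933 CPM in shPogz replicate 2, cytokines, chemokines and NF-kB targets at 887 CPM in shPogz replicate 2 and integrated and unfolded stress response at 2113 CPM in Adnp-set GFP replicate 2. The interferon-stimulated sum in that GFP library lay below 670.2 to 742 CPM in the other GFP libraries. The MHC class I sum in shPogz replicate 2 lay above 1140 to 1406 CPM in the other hairpin libraries. Pogz-set GFP replicate 1 was the shallowest of its arm, with 27501722 counts, and Rn45s took 7.62% of the counts of shAdnp replicate 1 against 0.519% to 0.740% in the other hairpin libraries.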

How the results depend on the processing

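The count of 0 genes passing the average effect stayed 0 with limma-voom, RLE, upper quartile scaling, the other filters, 1 mean per group, no set term, each set alone and both end libraries left out. DESeq2 called 711 (697 higher, 14 lower), and leaving out 1 library gave 0 to 502 (0 to 484 higher, 0 to 18 lower), the 502 without shPogz replicate 1 and 1 without Pogz-set GFP replicate 2. The labels number replicates 1 and 2 in each group. Same-numbered libraries deviated together by a correlation of -0.0085 in the Adnp set and 0.047 in the Pogz set. With 2 libraries a group these values cannot show whether the numbers pair the libraries. With a replicate block 405 genes passed, 405 higher and 0 lower (339 of them also called by DESeq2). Genes higher at an unadjusted p under 0.05 (1540) were 638 without both end libraries and 759 in the Pogz set alone. Genes lower (631) were 418 with upper quartile scaling, 51 without both end libraries, 238 in the Adnp set alone, 213 in the Pogz set alone, and 190 to 1054 with 1 library left out. Separated genes (1240 higher, 925 lower) were 1494 to 2180 higher and 1027 to 1950 lower with 1 library left out. The difference between sets gave 2 genes with DESeq2 and 0 to 4 with 1 library left out, and 315 to 1220 at an unadjusted p under 0.05. List medians moved by 1 SD or more of the residual spread of the list's median between libraries in 13 of 900 fits, among them microglia to 0.43 in the Pogz set alone, and interferon-stimulated genes to 1.05 and MHC class I to 0.67 without both end libraries. Where that SD was wide, as for MHC class II (1.12), large moves went uncounted. Without both end libraries guanylate-binding GTPases went from 1.97 to 1.10, MHC class II from 1.57 to 0.86 and blood leukocytes from 1.19 to 0.64. Smaller moves could still be most of a small median: without both end libraries voltage-gated channels went from -0.16 to -0.01, glutamate receptors and postsynapse from -0.18 to -0.03, p53 targets from 0.13 to 0.02 and the stress response from 0.26 to 0.09, and oligodendrocytes went from 0.21 to 0.02 without shPogz replicate 2. Most named genes were picked for their values in the main fit, and the refits share its libraries, so a kept direction was likely beforehand. Of 2311 single-gene values 2300 kept their direction. Those that reversed were Ash1l (-0.00265 with no set term, -0.0284 without Adnp-set GFP replicate 2, -0.0584 without Pogz-set GFP replicate 1, -0.0425 without shPogz replicate 1, -0.0765 in the Adnp set alone, and up to 0.0977 with 1 library left out), Stab1 (-0.0667 in the Pogz set alone), Camk2a (0.107 without both end libraries) and Mbp (-0.0205 without shAdnp replicate 1, -0.00968 without shPogz replicate 2, -0.0970 without both end libraries, -0.0784 in the Adnp set alone, and up to 0.376 with 1 library left out). The cause of these changes was not tested. With 2 libraries a group, leaving 1 out assumes that the lone library varies like the others. Depth limits genes under about 1 CPM, where 1 library holds few reads.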
